A study of Rattus norvegicus with 4 samples.

Results

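The genes described here are 9 of the 32623 in the deposited rat expression table, taken by symbol. They are Nfe2l2, which encodes the transcription factor NRF2, its inhibitor Keap1, and 7 antioxidant genes known as NRF2 targets (Gclc, Gclm, Txnrd1, Srxn1, Hmox1, Osgin1 and Me1). Each symbol had 1 row, and all 9 passed the filter on low counts. Expression was measured by RNA sequencing in tendon stem/progenitor cells (TSPCs) of the rat. The 2 control libraries came from cells given DMSO, the solvent, and the 2 others from cells treated with U0126, which blocks the MEK kinases and so the activation of ERK. The sources used here give no strain, age, genotype, dose, exposure time or number of animals. They do not tie a library to a culture or animal either, and the p-values can therefore speak only of how far these libraries lie apart, which may be technical. All values are over 2 libraries per group.

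NRF2 is a transcription factor that is held at a low level because KEAP1 binds it and hands it to a ubiquitin ligase for degradation. Oxidants and electrophiles modify cysteines of KEAP1, NRF2 then escapes degradation, pairs with a small MAF protein and binds antioxidant response elements (AREs) at genes for glutathione synthesis, thiol reduction, haem breakdown and NADPH supply. Because this control acts on the protein, the Nfe2l2 transcript is not a measure of NRF2 activity.

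Total counts lay between 36888913 and 42785190 per library, and 1 count was worth between 0.0230 and 0.0276 CPM (counts scaled to library size with TMM factors). The replicates of each group differed by more than sampling noise, with a chi-square per degree of freedom of 15.5 between the controls and 46.2 between the U0126 libraries. The share of counts from the mitochondrial genome was 2.98% and 3.48% in control libraries and 4.82% and 5.64% in U0126 libraries. All 14 tendon and progenitor markers had counts, and of the 13 tested, 5 were called higher with U0126 (Scx, Dcn, Fmod, Bgn and Nt5e) and 3 lower (Nes, Tnc and Thy1). Scx was at 12.2 and 11.8 CPM in the controls against 20.5 and 20.4 CPM, and Nes at 6.73 and 7.95 against 0.738 and 0.856 CPM. Tnmd, a marker of mature tendon cells, stayed at or under 0.115 CPM. The 4 epithelial markers and the erythroid Hbb were at 0. The summed level of the 7 macrophage markers in the table was 15.4 and 15.8 CPM in the controls and 11.2 and 12.5 CPM with U0126, most of it Cd14, with Ptprc and Cd163 at 0. That of the 4 endothelial markers was between 0.166 and 0.791 CPM, with Cdh5 at 0. That of the 5 skeletal muscle markers was 9.60 and 12.4 CPM in the controls and 3.37 and 3.65 CPM with U0126. That of the 4 Schwann cell markers was 8.18 and 13.3 CPM in the controls and 26.3 and 44.3 CPM with U0126, nearly all S100b, with Sox10 at 0. The mitochondrial share, the tendon markers called above and the macrophage, muscle and Schwann cell sums moved with the treatment, and their part in the results below was not tested. In bulk RNA, fewer cells of a type and less RNA per cell cannot be told apart.

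Matches to the ARE core in RefSeq promoter windows of the members are shown first, because both risers and genes that did not pass carry them. The windows (build GRCr8, which differs from the rn6 positions of the expression table) span 250 bases before to 50 after an annotated start. They were searched on both strands for the ARE core TGACNNNGC and its variant TGAGNNNGC, where N is any base. Windows were found for 8 of the 9 members. Hmox1 had none, so it was not searched. In the stretches below, written 5′ to 3′ on the gene's strand, capitals mark every match, read on either strand. The Srxn1 stretch is chr3:161064683-161064832 (plus strand), that of Me1 chr8:96540365-96540444 (minus strand), that of Gclm chr2:213031930-213032009 (plus strand) and that of the Txnrd1 start 2 chr7:22755935-22756014 (minus strand).
Srxn1: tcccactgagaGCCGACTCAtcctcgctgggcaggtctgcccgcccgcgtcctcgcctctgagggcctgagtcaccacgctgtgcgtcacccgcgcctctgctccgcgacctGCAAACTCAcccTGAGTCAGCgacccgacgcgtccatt
Me1: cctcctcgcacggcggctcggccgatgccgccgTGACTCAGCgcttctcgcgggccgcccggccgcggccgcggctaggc
Gclm: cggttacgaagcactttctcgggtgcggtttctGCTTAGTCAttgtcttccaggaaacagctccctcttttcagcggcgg
Txnrd1: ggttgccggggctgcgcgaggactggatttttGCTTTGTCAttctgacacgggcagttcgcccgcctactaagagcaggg

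The Me1 match TGACTCAGC and 1 of the 3 Srxn1 matches, TGAGTCAGC, also contain the 7-base site of AP-1 factors (TGACTCA or TGAGTCA), so the letters of both motifs overlap there. The Srxn1 stretch also holds a TGAGTCA outside any ARE core match, and this is not in capitals. The Gclm match, read on the opposite strand, is TGACTAAGC and lies 172 to 164 bases before the start. That of Txnrd1 is TGACAAAGC, also on the opposite strand, in 1 of its 2 annotated windows. Nfe2l2 held TGACGCCGC from base 38 to base 46, counting the start as 0. No match was in the Keap1, Gclc or Osgin1 windows, which says only that these letters are not in these windows. A core of either kind was in 5 of 9 member windows (55.6%), against 9063 of all 33469 windows (27.1%) and 31.2% of the 10706 windows of tested genes. TGACNNNGC alone was in 4 of 9 member windows (44.4%), in 12.1% of all windows and in 14.4% of those of tested genes. Most members were picked as known NRF2 targets, so a larger share among them is no test. A match is a description of the sequence, not a site shown to be bound. Of the genes with a match, Srxn1 and Me1 rose with U0126, and Gclm, Txnrd1 and Nfe2l2 did not pass the test.

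**Figure D1:**
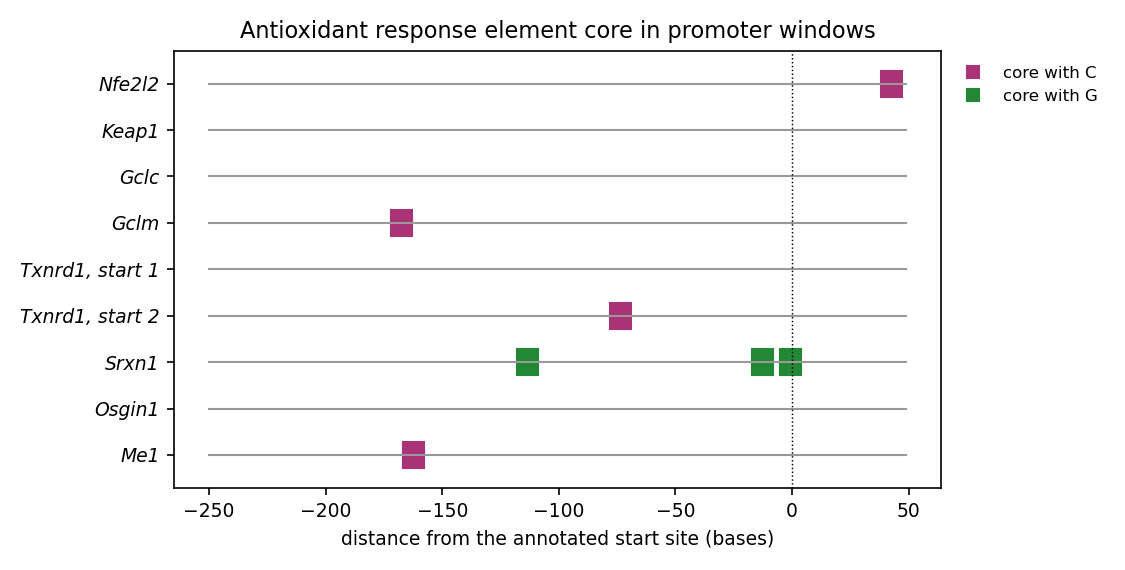
Position of the ARE core in the promoter windows of the members, with the distance from the annotated start site in bases on the x axis (dotted line, 0) and 1 line per window; purple blocks are TGACNNNGC and green blocks TGAGNNNGC, on either strand. Srxn1 holds 3 matches and Gclm, Me1, Nfe2l2 and 1 Txnrd1 window hold 1 each.

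With U0126, 4 of the 9 genes rose and 0 fell (edgeR's quasi-likelihood test, two-sided, Benjamini-Hochberg adjusted p under 0.05 over all 14023 genes tested). DESeq2 and limma-voom gave 4 and 0 as well, and at an unadjusted p under 0.05 edgeR had 6 higher and 0 lower. The share of all tested genes at that unadjusted threshold is not given here. Unadjusted counts, of the 9 and of the lists below, therefore cannot be set against a share. The risers were Osgin1, Srxn1, Hmox1 and Me1. Nfe2l2, Keap1, Gclc, Gclm and Txnrd1 did not pass. Over all tested genes 19.9% were called, 8.41% as higher and 11.5% as lower. The median log2 fold change of the 9 was 0.28, against 0.02 over all tested genes. Both U0126 libraries lay above both controls in 7 of the 9 genes and below them in 1, Txnrd1. Over all tested genes 31.8% lay above and 31.0% below, so this separation alone was common. The count of 4 rested on having both controls, and over all tested genes fewer were called without either control too. Without either U0126 library, more were called both among the 9 and over all tested genes. In the 11 alternatives the log2 fold change stayed between 2.48 and 2.94 for Osgin1 and between 0.62 and 0.84 for Srxn1. It stayed between 0.42 and 0.56 for Hmox1 and between 0.44 and 0.52 for Me1.

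**Figure D2:**
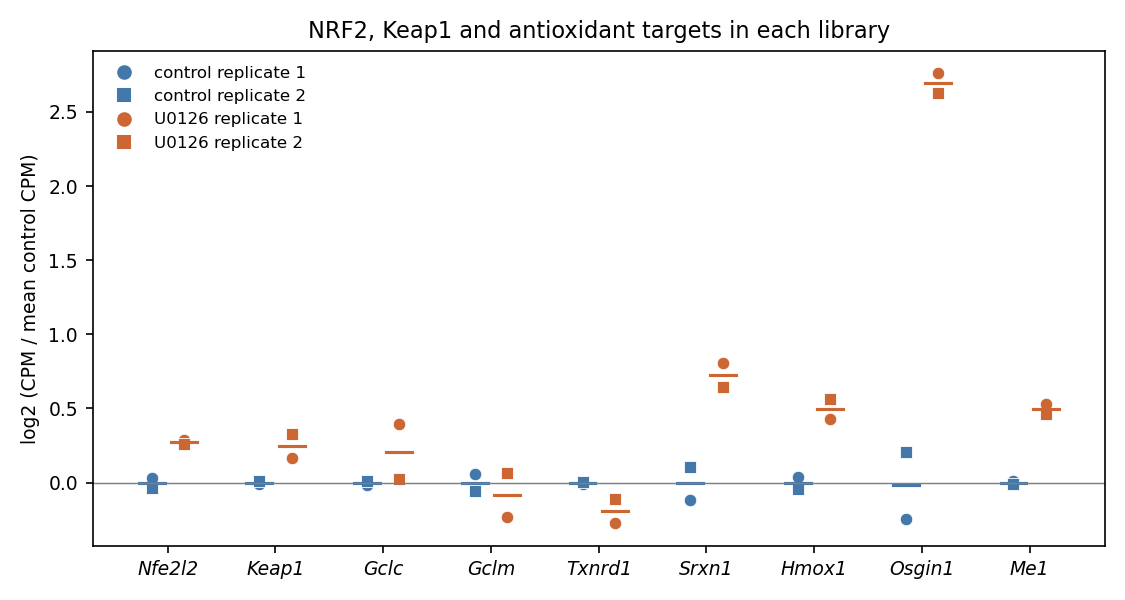
Level of each gene in each library as log2 of its CPM over the mean control CPM (y axis); blue marks are controls, orange marks U0126, circles replicate 1, squares replicate 2, and bars the mean of the log2 values. Osgin1 stands far above its controls, Hmox1, Me1 and Srxn1 moderately so, and for Gclc and Gclm 1 U0126 library lies near the controls.

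The regulator and its inhibitor showed small differences of like size. Nfe2l2 (ENSRNOG00000001548, chromosome 3, 62497571 to 62524996, rn6) was at 124 and 118 CPM in the controls and 148 and 145 CPM with U0126. Both U0126 libraries were higher than both controls, by more than the replicates differed from each other. The difference did not pass after adjustment over all genes (log2 fold change 0.28 ± 0.09 SE, 95% interval 0.07 to 0.48 before adjustment, edgeR adjusted p = 0.0643). Only 1 of its 11 alternatives, leaving out U0126 replicate 2, brought it past the threshold (edgeR adjusted p = 0.0331), and the largest adjusted p was 0.434. Keap1, the cysteine-rich adaptor that binds NRF2 (chromosome 8, 22250518 to 22259779, rn6), was at 43.3 and 43.8 CPM in the controls and 48.8 and 54.6 CPM with U0126. The groups did not overlap, and most of the spread within groups lay between the U0126 libraries. Its log2 fold change was 0.25 ± 0.10 SE (95% interval 0.01 to 0.48, edgeR adjusted p = 0.130). Of its 11 alternatives it passed without U0126 replicate 1 alone (edgeR adjusted p = 0.0310), and the largest adjusted p was 0.491. Per gene length, Nfe2l2 was the more abundant transcript of the pair. The ratio of its TPM (the deposited level scaled by gene length) to that of Keap1 was 3.92 and 3.70 in the controls and 4.15 and 3.65 with U0126, so the ratio overlapped between the groups.

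Gclc and Gclm encode the catalytic and the modifier subunit of glutamate-cysteine ligase, which makes the first and rate-limiting step of glutathione synthesis. Gclc (chromosome 8, 85059051 to 85097468, rn6) was at 64.1 and 65.4 CPM in the controls and 85.1 and 65.9 CPM with U0126. U0126 replicate 1 was high and U0126 replicate 2 was at the level of the controls. The log2 fold change of Gclc was 0.22 ± 0.13 SE (95% interval -0.09 to 0.53, edgeR adjusted p = 0.286). It was 0.38 without U0126 replicate 2 (edgeR adjusted p = 0.00872) and 0.03 without U0126 replicate 1 (0.869), so 1 library set its size. Gclm (chromosome 2, 225827504 to 225847874, rn6) was at 17.3 and 16.0 CPM in the controls and 14.2 and 17.5 CPM with U0126. Its groups overlapped, with U0126 replicate 1 the lowest of the 4. The log2 fold change of Gclm was -0.08 ± 0.15 SE (95% interval -0.42 to 0.27, edgeR adjusted p = 0.756), and it changed sign, to 0.067, without U0126 replicate 1. The ratio of Gclc to Gclm TPM was 1.81 and 1.99 in the controls, 2.93 in U0126 replicate 1 and 1.84 in U0126 replicate 2.

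Of the enzymes of thiol reduction, Srxn1 rose and Txnrd1 did not pass. Txnrd1, cytosolic thioredoxin reductase, which keeps thioredoxin reduced with NADPH (chromosome 7, 26946125 to 26984400, rn6), was at 173 and 175 CPM in the controls and 144 and 161 CPM with U0126. It was the only one of the 9 with both U0126 libraries below both controls. The difference did not pass (log2 fold change -0.19 ± 0.09 SE, 95% interval -0.41 to 0.03, edgeR adjusted p = 0.203). Without U0126 replicate 2 it did, as lower (edgeR adjusted p = 0.0335), and elsewhere the adjusted p reached 0.586. Srxn1, sulfiredoxin, which repairs over-oxidised peroxiredoxins (chromosome 3, 147609095 to 147632801, rn6), had counts of 151 and 193 in control libraries and of 273 and 233 in U0126 libraries. These were 3.81 and 4.43 CPM in the controls and 7.20 and 6.44 CPM with U0126, with no overlap. Srxn1 rose 1.65-fold (log2 fold change 0.72 ± 0.18 SE, edgeR adjusted p = 0.0346). This call was near the threshold. It was lost without control replicate 1 (edgeR adjusted p = 0.267) or 2 (0.152) and with the replicate number as a block (0.0591), and over the other alternatives the adjusted p went down to 0.0138. The ratio of Txnrd1 to Srxn1 TPM was 9.96 and 8.64 in the controls and 4.37 and 5.49 with U0126.

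Hmox1, haem oxygenase 1, which opens the haem ring to biliverdin, carbon monoxide and iron (ENSRNOG00000014117, chromosome 19, 14508616 to 14515456, rn6), was the most abundant of the 9 per gene length. It was at 288 and 272 CPM in the controls and 377 and 414 CPM with U0126. Both U0126 libraries stood well above the controls. Hmox1 rose 1.41-fold (280.1 ± 11.2 to 395 ± 26.3 CPM, SD, n = 2; log2 fold change 0.50 ± 0.09 SE, edgeR adjusted p = 0.0115). Hmox2, the constitutive haem oxygenase, was at 37.6 and 33.2 CPM in the controls and 34.2 and 36.9 CPM with U0126 (log2 fold change 0.01 ± 0.11 SE, 95% interval -0.25 to 0.27, named after its values were seen). The ratio of Hmox1 to Hmox2 TPM was 8.78 and 9.43 in the controls and 12.7 and 12.9 with U0126.

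Me1, cytosolic malic enzyme, which makes NADPH from malate (chromosome 8, 94256839 to 94368834, rn6), was at 88.7 and 87.2 CPM in the controls and 127 and 121 CPM with U0126. The replicates of Me1 lay close together in both groups. Me1 rose 1.41-fold (log2 fold change 0.50 ± 0.09 SE, edgeR adjusted p = 0.00828). The calls of Hmox1 and Me1 were both lost without control replicate 1 (edgeR adjusted p = 0.0958 and 0.110) or control replicate 2 (0.150 and 0.130), although the fold changes stayed between 0.42 and 0.56 for Hmox1 and between 0.44 and 0.52 for Me1 on the log2 scale in every alternative. The lowest adjusted p, with DESeq2, was 9.30e-05 for Hmox1 and 9.22e-05 for Me1.

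Osgin1, oxidative stress induced growth inhibitor 1 (ENSRNOG00000014948, chromosome 19, 52077109 to 52085496, rn6), changed most. Its counts were 93 and 140 in control libraries and 715 and 622 in U0126 libraries, or 2.34 and 3.22 CPM against 18.8 and 17.2 CPM. Both U0126 libraries were several times above either control. Osgin1 rose 6.46-fold (2.78 ± 0.616 to 18.0 ± 1.18 CPM, SD, n = 2; log2 fold change 2.69 ± 0.19 SE, 95% interval 2.24 to 3.14, edgeR adjusted p = 2.71e-04). It passed in all 11 alternatives, with an adjusted p between 1.81e-27 (DESeq2) and 0.00368 and a log2 fold change between 2.48 and 2.94. In the order of log2 fold changes over all tested genes it stood at percentile 99.3, against 92.2 for Srxn1, 86.6 for Hmox1 and 86.5 for Me1.

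**Figure D3:**
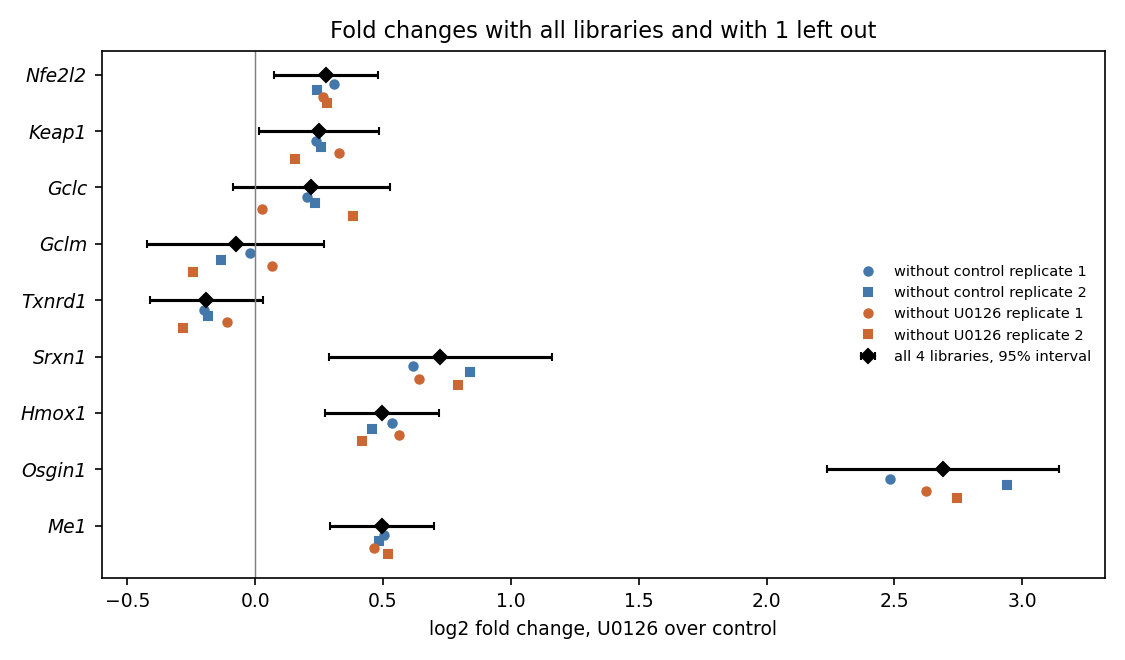
Log2 fold change of each gene with U0126 over control (x axis): black diamonds with 95% intervals are the fit to all 4 libraries, and coloured marks below them the fits without 1 library. Osgin1, Srxn1, Hmox1 and Me1 stay above 0 in every fit, and Gclm lies on either side of 0.

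Levels of different genes can be set side by side only per length, on the deposited TPM scale. In the controls the order was Hmox1 (321 ± 4.37 TPM, SD, n = 2, as for the rest), Nfe2l2 (94.1 ± 0.567), Txnrd1 (94.0 ± 3.13), Me1 (53.7 ± 0.989), Gclc (38.3 ± 1.54), Keap1 (24.7 ± 0.867), Gclm (20.2 ± 0.591), Srxn1 (10.2 ± 1.35) and Osgin1 (2.45 ± 0.605). The libraries of Nfe2l2 and Txnrd1 overlapped, and those of no other neighbours did. With U0126 the same order held by mean. Hmox1 was at 435 ± 32.7 TPM, Nfe2l2 at 109 ± 0.497, Txnrd1 at 78.9 ± 6.87 and Me1 at 72.5 ± 1.73. Gclc was at 42.8 ± 7.33, Keap1 at 28.2 ± 2.46, Gclm at 18.4 ± 2.83, Srxn1 at 16.1 ± 1.18 and Osgin1 at 15.3 ± 0.864. The libraries of Srxn1 overlapped with those of Gclm and of Osgin1, so these neighbours could not be ordered, and Txnrd1 and Me1 differed by less than the SD of Txnrd1. Hmox1 stood above the rest in every library, and with U0126 Osgin1 was in the range of Srxn1.

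**Figure D4:**
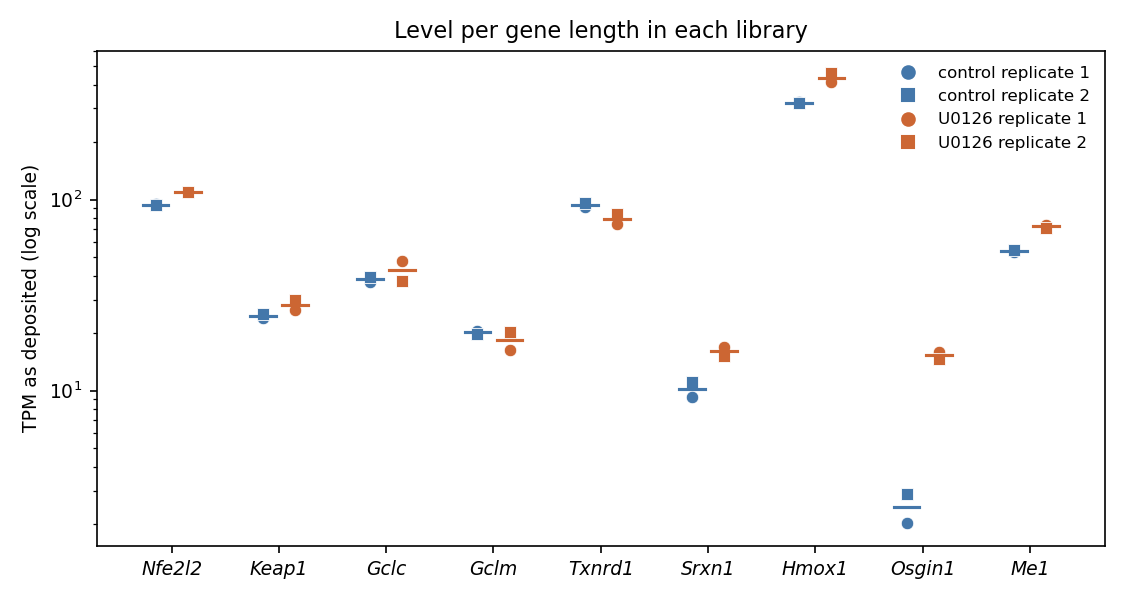
Deposited TPM of each gene in each library (y axis, log scale), with colours and marks for group and replicate and bars for group means. Hmox1 is highest in every library, and with U0126 Osgin1 reaches the range of Srxn1.

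The genes whose pattern over the 4 libraries was most like that of a member were found by the largest difference, over the libraries, between centred log2 CPM profiles, among 8441 other named genes that averaged at least 3 on the log2 CPM scale. For Osgin1 these were Cilp (largest difference 0.17), Ahrr (0.21) and Inhbb (0.22), whose log2 fold changes were 2.60, 2.56 and 2.38. Cilp is a cartilage matrix protein, Ahrr the repressor of the aryl hydrocarbon receptor and itself a target of it, and Inhbb a subunit of activin B. For Nfe2l2 they were Saraf (0.02), Dhrs7 (0.02) and Sec22b (0.02), with log2 fold changes of 0.28, 0.30 and 0.28. As many as 604 genes were within 0.1 of Nfe2l2 and 0 within 0.1 of Osgin1, so the Nfe2l2 profile was a common one in these libraries.

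The other genes of the NRF2 network were described over 8 lists with 117 members, of which 114 were in the table and 103 tested. Of these 103, 16 rose and 12 fell, and their median log2 fold change was 0.00. Together 27.2% were called, against 19.9% of all tested genes. Without either control far fewer were called, here and over all tested genes, and the 2 shares were then alike. The larger share among these genes thus rested on having both controls. Without either U0126 library more were called, again in both. Counts below with 1 library left out are to be read beside these moves over all tested genes.

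Among 16 tested genes of NRF2 control and its partners, 1 rose and 0 fell by edgeR, as with DESeq2 and limma-voom (2 and 3 by edgeR at an unadjusted p under 0.05). The share called by edgeR, 6.25%, was below the 19.9% over all tested genes. The riser was Sqstm1, the autophagy receptor p62 that can sequester KEAP1, from 351 and 335 CPM in the controls to 499 and 585 CPM with U0126 (1.58-fold, edgeR adjusted p = 0.00597; 0.0782 without control replicate 2, the largest over its alternatives). Its U0126 libraries were well above the controls. Genes picked for their role, not by the naming rule, did not pass: the log2 fold change was 0.04 for the ligase scaffold Cul3, 0.07 for Bach1, which represses ARE genes, and 0.11, -0.30 and -0.44 for the small MAF genes Mafg, Mafk and Maff. Without U0126 replicate 1 the list had 3 risers and 1 faller, and without U0126 replicate 2 it had 1 and 3.

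Of 12 other tested antioxidant response targets, 4 rose, 1 fell and 7 did not pass, so 41.7% were called against 19.9% of all tested genes. Nqo1, the quinone reductase that NRF2 and the aryl hydrocarbon receptor are both known to induce, was at 293 and 306 CPM in the controls and 1309 and 1159 CPM with U0126. It rose 4.11-fold (log2 fold change 2.04 ± 0.10 SE, edgeR adjusted p = 1.14e-04) and passed in all 11 alternatives. Aox1, aldehyde oxidase, rose 2.46-fold, Ephx1, microsomal epoxide hydrolase, 1.54-fold, and Abcc4, an organic anion exporter named after its values were seen, 1.66-fold. Akr1b10, an aldo-keto reductase, went the other way, from 17.9 and 15.4 CPM to 4.43 and 3.56 CPM. This was a fall of 2.06 on the log2 scale (edgeR adjusted p = 5.00e-04), and it passed in all 11 alternatives. Its family has near-identical copies, so its counts are uncertain. The calls of Ephx1 and Abcc4 were lost without either control. The list's median log2 fold change was 0.06, near 0, and its strongest rise, in Nqo1, was of like size to the fall of Akr1b10.

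In the thioredoxin and peroxiredoxin system, 18 genes were tested. Falls were called in 6 and rises in 2, and the other 10 did not pass, with a median log2 fold change of -0.24. Calls made up 44.4% of this list, against 19.9% of all tested genes. Peroxiredoxins reduce peroxides, and several of them, though not all, are themselves reduced by thioredoxin. Prdx4, the endoplasmic reticulum peroxiredoxin, was at 146 CPM in both controls and 97.7 and 103 CPM with U0126, a fall of 0.55 on the log2 scale (edgeR adjusted p = 0.00557). Prdx5 fell by 0.62, and Msrb1, a methionine sulfoxide reductase, by 0.60 on that scale. Thioredoxin itself (Txn1), Prdx6 and Prdx3, named after their values were seen, fell by 0.38, 0.39 and 0.32. Prdx3 was near the threshold (edgeR adjusted p = 0.0476) and lost its call in 5 of 11 alternatives, the replicate block among them (0.0829). The risers were the stress-induced sestrins Sesn2 (1.59-fold) and, named after its values were seen, Sesn3 (1.47-fold). Sesn3 (edgeR adjusted p = 0.0427) also lost its call in 5 of 11 alternatives, and its log2 fold change went from 0.56 to 0.32 without U0126 replicate 1 (0.0527). The calls of this list were lost without either control, where calls were fewer over all tested genes too. More falls were called without U0126 replicate 2, again as over all tested genes. The list's median stayed between -0.30 and -0.24 in all 11 alternatives. That of the glutathione cycle was below 0 in all 11 as well, between -0.18 and -0.07.

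In the glutathione cycle, 1 of 22 tested genes rose and 2 fell, 13.6% in all, below the 19.9% over all tested genes. The list's median log2 fold change was -0.10. Gss, glutathione synthetase, which makes the step after Gclc and Gclm, was at 73.7 and 72.5 CPM in the controls and 38.9 and 47.6 CPM with U0126, a fall of 0.76 on the log2 scale (edgeR adjusted p = 0.00511; up to 0.0586 without a control). Glrx, glutaredoxin, fell by 1.28 and Chac1, a glutathione-degrading enzyme, rose 1.61-fold, a call lost without control replicate 1 (edgeR adjusted p = 0.0743). Without U0126 replicate 1 the list had 1 riser and 4 fallers.

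Of 13 tested NADPH supply genes, 1 rose and 2 fell, a share of 23.1% that was near the 19.9% over all tested genes. Idh1, the cytosolic isocitrate dehydrogenase, rose 1.54-fold, from 164 and 154 CPM to 273 and 218 CPM. The mitochondrial Idh2 and Me2, a mitochondrial relative of Me1, fell by 0.72 and 0.64 on the log2 scale. Neither Idh1, Idh2 nor Me2 passed without control replicate 1 or 2, and the list had 3 risers without U0126 replicate 1 and 4 fallers without U0126 replicate 2.

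Haem and iron handling, the setting of Hmox1, had 4 risers and 1 faller among 12 tested genes and a median log2 fold change of 0.17. Thus 41.7% of the list were called, against 19.9% of all tested genes. The risers were Slc48a1, a haem transporter (217 and 201 CPM to 334 and 360 CPM, 1.66-fold), the ferritin light chain Ftl1 (1.53-fold), the iron exporter Slc40a1 (2.39-fold) and the porphyrin transporter Abcb6 (1.49-fold). Slc40a1 has 2 rows in the table and ferritin has near-identical copies in the genome, so both are uncertain. Blvra, a biliverdin reductase named after its values were seen, fell by 0.42 on the log2 scale (edgeR adjusted p = 0.0417; 0.0731 with the replicate block, up to 0.325 over its alternatives). Slc48a1 was the member of this list that still passed without either control (edgeR adjusted p at most 0.0489).

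Of the enzymes that remove or make superoxide and peroxide, Cat (catalase) rose 1.57-fold and Sod3, the extracellular superoxide dismutase, 1.29-fold (edgeR adjusted p = 0.0496), among 5 dismutase and catalase genes tested. By edgeR, calls made up 20% of the tested oxidase subunits and 40% of the dismutase and catalase list, against 19.9% of all tested genes. Neither this list nor the oxidase subunits had a faller by edgeR, DESeq2 or limma-voom, or by edgeR at an unadjusted p under 0.05 (0 each). Sod3 lost its call in 7 of 11 alternatives (adjusted p up to 0.373; 0.0532 with the replicate block). Nox4, a hydrogen peroxide-producing NADPH oxidase, was the 1 riser among 5 tested oxidase subunits, from 8.72 and 7.49 CPM to 43.4 and 24.8 CPM (4.21-fold, edgeR adjusted p = 0.00235). Both U0126 libraries were above the controls but far apart from each other, and Nox4 passed in all 11 alternatives. Cat lost its call without either control (edgeR adjusted p up to 0.149).

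**Figure D5:**
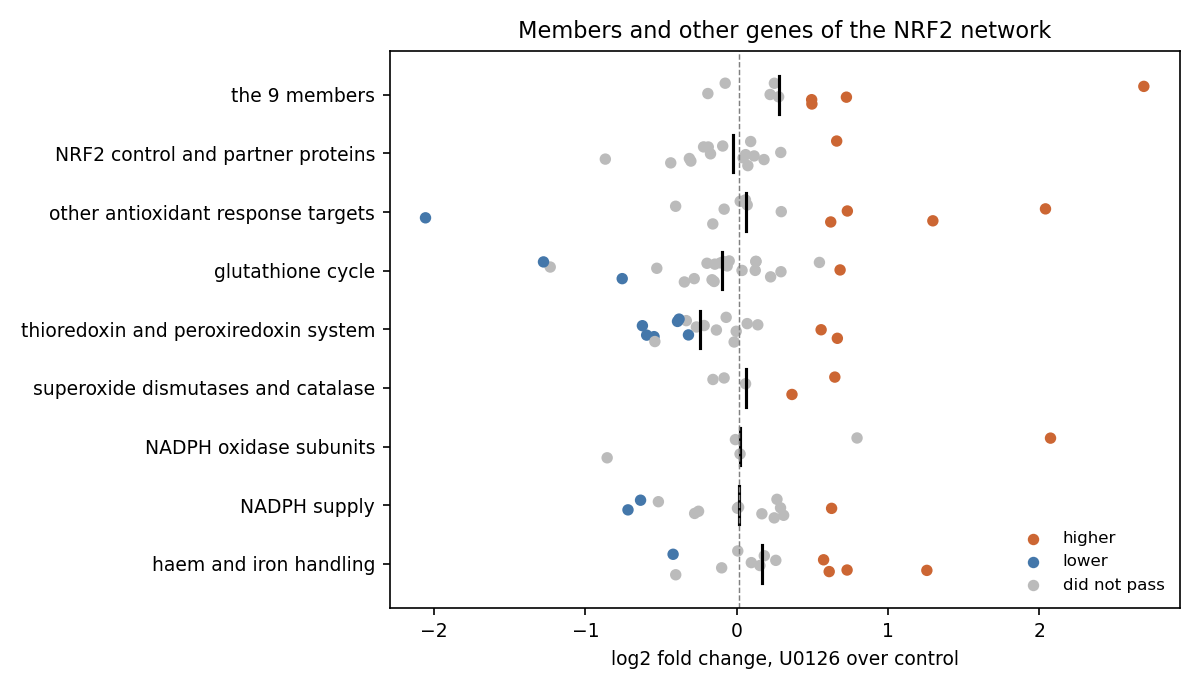
Log2 fold change with U0126 over control (x axis) of the 9 genes and of the tested genes of each list; orange dots are higher and blue dots lower at an adjusted p under 0.05, grey dots did not pass, black bars are list medians and the dashed line the median of all tested genes. The thioredoxin and peroxiredoxin median is at -0.24 and that of the 9 genes at 0.28.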

How the data were processed

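Trizol extraction and Illumina library preparation are recorded per the labels' protocols, and the submitters' processing notes name the build rn6. The sources used here do not give the aligner, counter, strand setting or annotation release. The deposited table holds raw counts per gene, tested as deposited. The authors' TPM values, scaled by gene length and to a fixed total, served only to compare levels between genes, and the authors' FPKM values were not used. Columns were matched to samples by header letter and number, with 0 unmatched.

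Counts were filtered with filterByExpr (minimum count 10, minimum total 15), scaled by TMM and tested with edgeR 4.0.16 (glmQLFit, glmQLFTest, prior count 0.125) in R 4.3.3. Standard errors are the absolute log2 fold change over the square root of F. Of several rows with a symbol, that with the highest mean count was kept. The script was tested on simulated data. Alternatives were RLE factors, library totals alone, DESeq2 1.42.0, limma-voom 3.58.1, no filter, at least 1 CPM in all libraries, the replicate block and leaving out each library.

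The 9 genes and the lists were chosen with earlier results of these data known. The text names the 9, of each list up to 4 called members in order of adjusted p, and 3 pattern neighbours each of Nfe2l2 and the most changed member. Other names are said to be chosen after their values were seen or for their role. Promoter sequences are from RefSeq (GRCr8).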

Additional observations from a re-analysis of the deposited data

How the results depend on the processing

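With all 4 libraries kept, the counts of changed genes moved little: 4 of the 9 genes were called in each alternative except the replicate block, with 3, where Srxn1 was lost. Leaving out 1 library mattered more. The number of changed genes lay between 899 and 4644 (2792 with all), that of the 9 genes between 1 and 7, and that of the 103 other network genes between 6 and 41 (28 with all). Calls were fewest without a control and most without U0126 replicate 2, and the cause was not tested. The log2 fold change of Gclm (-0.08 with all) lay between -0.24 without U0126 replicate 2 and 0.067 without U0126 replicate 1, which reversed it. Over 34 other named genes, 226 of 238 comparisons with all libraries kept and 88 of 136 with 1 left out stayed on their side of the threshold, and 0 reversed. The deposited TPM gave log2 ratios lower by more than the replicate SD for Nfe2l2 (0.22 against 0.28) and Me1 (0.43 against 0.49). Library totals alone, without TMM factors, moved the log2 fold changes of all tested genes by a median of -0.05. The shift of the TPM ratios over all tested genes was not taken, so whether the TPM differences were particular to Nfe2l2 and Me1 was not tested. The replicate numbers were not shown to pair the libraries: same-numbered deviations correlated at -0.03 over genes. The block ended the calls of Srxn1, Sod3, Prdx3 and Blvra among the named genes and gave 2371 changed genes and 27 network genes. With 2 libraries per group, an exact permutation test of a single gene could not pass, so each call rests on spread shared across genes. Low counts limit Osgin1 and Srxn1 most.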
